A study of Homo sapiens with 12 samples.

Results

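The 6 libraries described here compared the EW8 and TC71 Ewing sarcoma cell lines without induction of AP-1. They were the vehicle libraries of a 12-library RNA-seq series, chosen by their treatment label alone, with 3 libraries for each line and all genes considered. Both lines carried a lentiviral system in which doxycycline turns on c-Jun and c-Fos together, although the labels list the genotype of every sample as WT. The vehicle was DMSO, given for 72 h, and the cells were grown in DMEM with 10% FBS. The other 6 libraries were from the same lines after 72 h with 2000 ng/ml of doxycycline. In those libraries the same comparison between lines was made on samples that share no library with the vehicle comparison. In the study's description of the lines, both carry EWS-FLI1, and TC71 has a deletion of CDKN2A. Whether the lines were clonal after transduction and whether the replicates were separate cultures was not given in the sources used here. P-values therefore measure the spread between these libraries, which may be technical.

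Ewing sarcoma is a tumor of bone and soft tissue in children and young adults. It is driven by a fusion of EWSR1 with an ETS gene, most often FLI1, and the fusion protein binds repeats of the GGAA motif and activates genes such as NR0B1, NKX2-2 and CCND1. The same protein represses many mesenchymal and extracellular matrix (ECM) genes. The cell of origin is debated between mesenchymal stem cells and neural crest derivatives, and cell lines of the tumor differ in how much of a neural or a mesenchymal program they express.

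Levels are given as CPM, which is counts per 1000000 counts of a library after TMM scaling. Total counts ran from 42860665 to 60853649 in the 6 libraries, with each mate of a pair adding its own count. A line was taken to be at the floor for a gene when all 3 of its libraries had 6 counts or fewer, which is 3 read pairs. Against a line at the floor, fold differences are given as bounds, computed as if each of its libraries held 6 counts, which cover counting error only. The first principal component of the 6 libraries held 84.3% of the variance and separated the lines. The second, with 5.12%, separated TC71 replicate 1 from TC71 replicates 2 and 3. Of 10908 genes with a mean of at least 5 CPM in TC71, 891 were more than 0.5 log2 units from the mean of the other replicates in replicate 1, 185 in replicate 2 and 262 in replicate 3. In EW8 the counts were 71, 56 and 40 of 11207 genes.

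The first question was how many genes distinguished the lines at baseline. At an adjusted p-value < 0.05 (edgeR quasi-likelihood test, Benjamini-Hochberg over 21013 genes) and an absolute Log2(Fold Change) > 1, 2446 genes were higher in TC71 (11.6%) and 3974 were higher in EW8 (18.9%). These shares are the background for the gene lists described here. Without the limit on fold change, 12974 genes (61.7%) passed the adjusted p-value, 5936 of them higher in TC71 and 7038 higher in EW8. At a log2 difference over 5, 370 genes were higher in TC71 and 916 higher in EW8. The libraries of the lines did not overlap for 64.7% of all genes tested and for 6188 of the 6420 called genes. EW8 was at the floor for 483 of the genes higher in TC71 (19.7%), and TC71 was at the floor for 1190 of those higher in EW8 (29.9%). Protein-coding genes made up 1753 and 3002 of the calls and long non-coding RNAs 366 and 610.

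**Figure D1:**
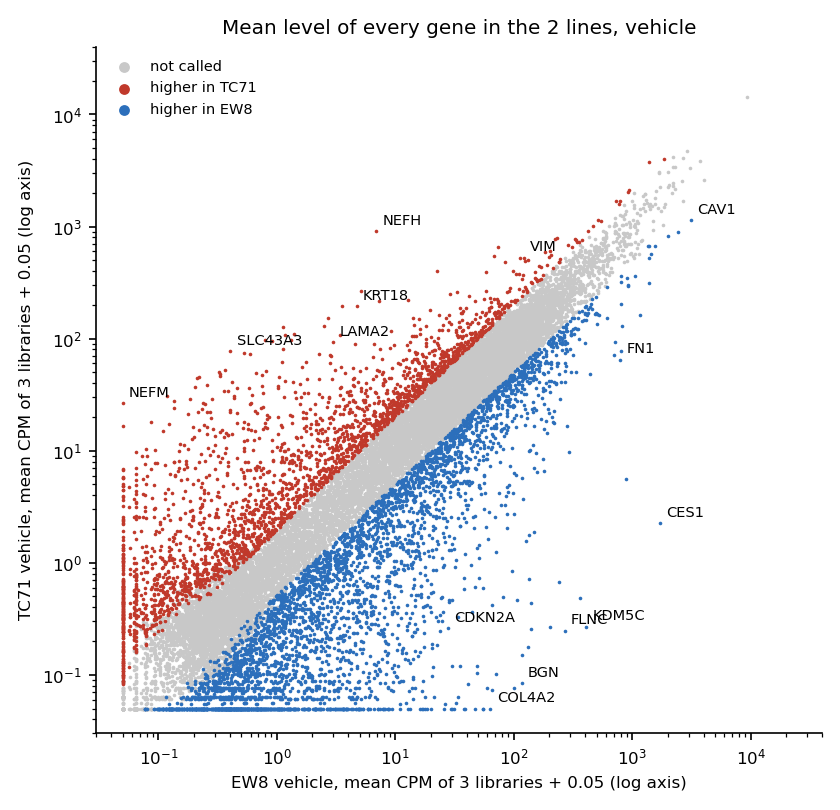
Mean level of each tested gene in EW8 vehicle (x axis) and TC71 vehicle (y axis), in CPM plus 0.05 on log axes, with 1 point per gene and 3 libraries per mean. Colored points passed the adjusted p-value and the fold limit, with those higher in TC71 above the diagonal and those higher in EW8, the larger group, below it. Genes on the Y chromosome and XIST are not drawn.

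The doxycycline libraries gave a second comparison of the same lines, after induction of c-Jun and c-Fos. It used other libraries of the same fit and does not replicate the lines themselves. Of the 2446 genes higher in TC71 with vehicle, 1720 (70.3%) were also called higher in TC71 with doxycycline, which is 65.1% of the 2642 genes called there (12.6% of genes tested). Of the 3974 genes higher in EW8, 2922 (73.5%) were called again, which is 75.4% of the 3874 called with doxycycline (18.4%). In all, 82 of the vehicle calls were called in the opposite direction. Of these, 31 had been higher in TC71 and 51 higher in EW8.

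Some genes were expressed in one line and at the floor in the other. Of 305 such genes in EW8, at 1 CPM or more in every EW8 library, 244 were protein coding and 50 had a mean of at least 10 CPM. In TC71 there were 88, of which 54 were protein coding and 7 had a mean of at least 10 CPM. With doxycycline, all 88 were again called higher in TC71 and 304 of the 305 again higher in EW8. The silent line stayed at the floor with doxycycline for 46 of the 88 and 211 of the 305.

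Among these one-line genes, the highest mean in EW8 was that of BGN (ENSG00000182492.15, chromosome X, 153494939 to 153509554, plus strand), which encodes biglycan, a small proteoglycan of connective tissue. It was at 107, 129 and 115 CPM in EW8 and 0, 0.0644 and 0.0388 CPM in TC71. The EW8 level was at least 1004-fold above the TC71 floor. TMEM132B, a transmembrane protein gene, was at 100.5, 90.8 and 109 CPM in EW8 and 0.0764, 0 and 0 CPM in TC71, at least 860.0-fold higher in EW8. PTPRC (ENSG00000081237.19, chromosome 1, 198638457 to 198757476, plus strand), which encodes the leukocyte phosphatase CD45, was at 69.2, 59.6 and 68.8 CPM in EW8 and 0, 0.0322 and 0.0388 CPM in TC71, at least 566-fold higher in EW8. All of these genes were far above the floor in every EW8 library, and no TC71 library exceeded 6 counts. F2RL2, a thrombin receptor gene, was at 61.5, 58.8 and 56.2 CPM in EW8 and 0.0382, 0 and 0.0388 CPM in TC71. The fifth was COL4A2 (ENSG00000134871.18, chromosome 13, 110305812 to 110513209, plus strand), which encodes an alpha chain of type IV collagen, the network collagen of basement membranes. It was at 60.1, 65.9 and 64.4 CPM in EW8 and 0 CPM in all 3 TC71 libraries, at least 545-fold higher in EW8.

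COL4A2 and COL4A1 lie head to head on opposite strands of chromosome 13, and both were at the floor in TC71. COL4A1 was at 27.1, 30.7 and 32 CPM in EW8 and 0 CPM in all 3 TC71 libraries, at least 257-fold higher in EW8. With doxycycline the log2 difference was -7.35 for COL4A2 and -9.56 for COL4A1. Their promoters are printed because the pair moved together and share a start region, and the PTPRC promoter is printed beside them as one with few CG dinucleotides. Each window runs from 250 bases before to 50 after the start site (RefSeq, GRCh38.p14), with CG dinucleotides in capitals, which read the same on both strands. The COL4A2 window (chr13:110307034-110307333, plus strand) and the COL4A1 window (chr13:110307108-110307407, minus strand) have 226 bases in common. The PTPRC window is chr1:198638790-198639089, plus strand.
COL4A2: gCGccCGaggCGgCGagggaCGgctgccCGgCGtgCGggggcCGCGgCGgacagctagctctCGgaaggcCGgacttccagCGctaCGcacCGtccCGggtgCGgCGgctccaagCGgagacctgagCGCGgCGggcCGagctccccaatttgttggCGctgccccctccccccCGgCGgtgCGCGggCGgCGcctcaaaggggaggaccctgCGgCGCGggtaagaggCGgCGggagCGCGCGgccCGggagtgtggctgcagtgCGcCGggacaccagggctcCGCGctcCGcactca
COL4A1: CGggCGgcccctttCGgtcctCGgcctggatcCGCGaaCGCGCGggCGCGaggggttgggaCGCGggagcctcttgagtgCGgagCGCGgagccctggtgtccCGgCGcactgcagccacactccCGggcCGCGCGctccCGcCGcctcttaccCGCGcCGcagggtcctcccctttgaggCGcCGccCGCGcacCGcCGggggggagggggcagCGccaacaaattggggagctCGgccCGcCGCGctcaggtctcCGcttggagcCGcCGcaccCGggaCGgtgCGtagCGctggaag
PTPRC: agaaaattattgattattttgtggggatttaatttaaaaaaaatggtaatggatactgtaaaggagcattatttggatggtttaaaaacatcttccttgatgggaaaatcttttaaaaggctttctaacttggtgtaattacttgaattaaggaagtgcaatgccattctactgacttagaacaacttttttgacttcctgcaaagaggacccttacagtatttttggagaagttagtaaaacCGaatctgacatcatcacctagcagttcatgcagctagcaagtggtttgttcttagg

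Each collagen window held 45 CG dinucleotides, a number that 3.48% of all 35116 promoter windows reach or exceed. The PTPRC window held 1, and 96% of windows hold at least 1. The median window held 14. No methylation was measured in these libraries.

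The genes expressed in TC71 and at the floor in EW8 were led by TBX4 (ENSG00000121075.10, chromosome 17, 61452404 to 61485110, plus strand), a T-box factor of hindlimb and lung development. It was at 0, 0.131 and 0.0718 CPM in EW8 and 24.2, 34.4 and 32.7 CPM in TC71, at least 225-fold higher in TC71. NEFM, the medium neurofilament chain, had no count in any EW8 library and was at 22.8, 26.9 and 30.3 CPM in TC71, at least 197-fold higher. OCIAD2 was at 0, 0 and 0.108 CPM in EW8 and 14.1, 19.6 and 20.1 CPM in TC71. PRSS21, which encodes the testis serine protease testisin, was at 0 CPM in all 3 EW8 libraries and 13.5, 17.5 and 18.6 CPM in TC71. These genes were silent in EW8 within the depth of the libraries. UGGT2, which encodes a folding sensor of the endoplasmic reticulum, was at 0, 0.0872 and 0 CPM in EW8 and 10.6, 9.4 and 11.1 CPM in TC71, at least 76.7-fold higher in TC71.

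Among protein-coding genes measured above the floor in both lines, the largest differences in favor of EW8 came next. KDM5C (ENSG00000126012.11, chromosome X, 53191321 to 53225422, minus strand), an X-linked H3K4 demethylase, was at 396, 412 and 426 CPM in EW8 and 0.153, 0.387 and 0.116 CPM in TC71 (log2 fold change of -10.80, SE 0.18, adjusted p = 2.53e-18). FLNC, which encodes the actin crosslinker filamin C, was at 248, 277 and 283 CPM in EW8 and 0.115, 0.322 and 0.155 CPM in TC71 (log2 fold change of -10.35, SE 0.15, adjusted p = 1.25e-18). FABP7, the brain fatty acid binding protein of radial glia, was at 120.2, 120.2 and 114 CPM in EW8 and 0.0382, 0.0644 and 0.194 CPM in TC71 (log2 fold change of -10.22, SE 0.17, adjusted p = 2.53e-18). Every TC71 library held less than 1 CPM of each of these genes. CES1 (ENSG00000198848.12, chromosome 16, 55802851 to 55833337, minus strand), a carboxylesterase of lipid and drug metabolism, was at 1681, 1720 and 1753 CPM in EW8 and 2.1, 2.35 and 2.17 CPM in TC71 (log2 fold change of -9.60, SE 0.09, adjusted p = 7.09e-22). NEUROD6, a neuronal basic helix-loop-helix factor, was at 146, 134 and 137 CPM in EW8 and 0, 0.419 and 0.194 CPM in TC71. EEF1A2, the translation elongation factor isoform of neurons and muscle, was at 183, 217 and 201 CPM in EW8 and 0.191, 0 and 0.466 CPM in TC71. MUC3A and PRAMEF1 completed the set, at log2 differences of -10.45 and -10.06. MUC3A had TC71 counts in replicate 3 alone, and without that library its fitted difference was -14.75, with no TC71 count left, while it was -9.82 and -9.80 without TC71 replicates 1 and 2. Without TC71 replicate 2 the differences of KDM5C, FLNC and PRAMEF1 were -11.55, -10.94 and -9.40, and without TC71 replicate 3 that of FABP7 was -11.04. MUC3A and PRAMEF1 belong to families with close copies, so that reads mapping to several copies were not counted. With doxycycline the line difference in FLNC was -2.17, against -11.39 for KDM5C and -9.94 for CES1.

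The next set was protein-coding genes above the floor in both lines with a mean of at least 10 CPM in TC71. Their 8 largest differences in favor of TC71 rested on few EW8 counts. HENMT1 (ENSG00000162639.15, chromosome 1, 108648290 to 108661526, minus strand), which methylates the ends of germline piRNAs, was at 0.316, 0.131 and 0.0359 CPM in EW8 and 42, 44.9 and 47.4 CPM in TC71 (log2 fold change of 8.18, SE 0.24, adjusted p = 4.05e-15). RBM46, an RNA-binding protein of meiosis, was at 0.18, 0.0436 and 0.0359 CPM in EW8 and 27.5, 20.1 and 23.9 CPM in TC71 (log2 fold change of 8.13, SE 0.34, adjusted p = 4.03e-13). RNF212, a crossover factor of meiosis, was at 0.451, 0.0872 and 0.287 CPM in EW8 and 50.7, 48.6 and 51.3 CPM in TC71. SAGE1, a cancer-testis antigen, was at 0.0902, 0.174 and 0.252 CPM in EW8 and 51.9, 42.1 and 41.2 CPM in TC71. None of these had an EW8 library above 1 CPM. SLC43A3, a purine nucleobase transporter, was at 0.293, 0.632 and 0.144 CPM in EW8 and 79.4, 76.4 and 76.5 CPM in TC71 (log2 fold change of 7.80, SE 0.20, adjusted p = 5.84e-16). CTPS2, a CTP synthase, was at 0.0451, 0.174 and 0 CPM in EW8 and 16.3, 18.5 and 17 CPM in TC71. C9orf64 and NRIP1, a nuclear receptor corepressor, had log2 differences of 7.79 and 7.64. Without EW8 replicate 1 the differences of HENMT1 and RBM46 were 9.10 and 9.15. Without EW8 replicate 2 that of SLC43A3 was 8.51, and without EW8 replicate 3 those of C9orf64 and NRIP1 were 9.08 and 8.75. Without EW8 replicate 3 SAGE1 (8.41) exceeded HENMT1 (7.67), so that no order among the 8 is given. With doxycycline all 8 were again called higher in TC71, and the NRIP1 difference was 2.75.

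**Figure D2:**
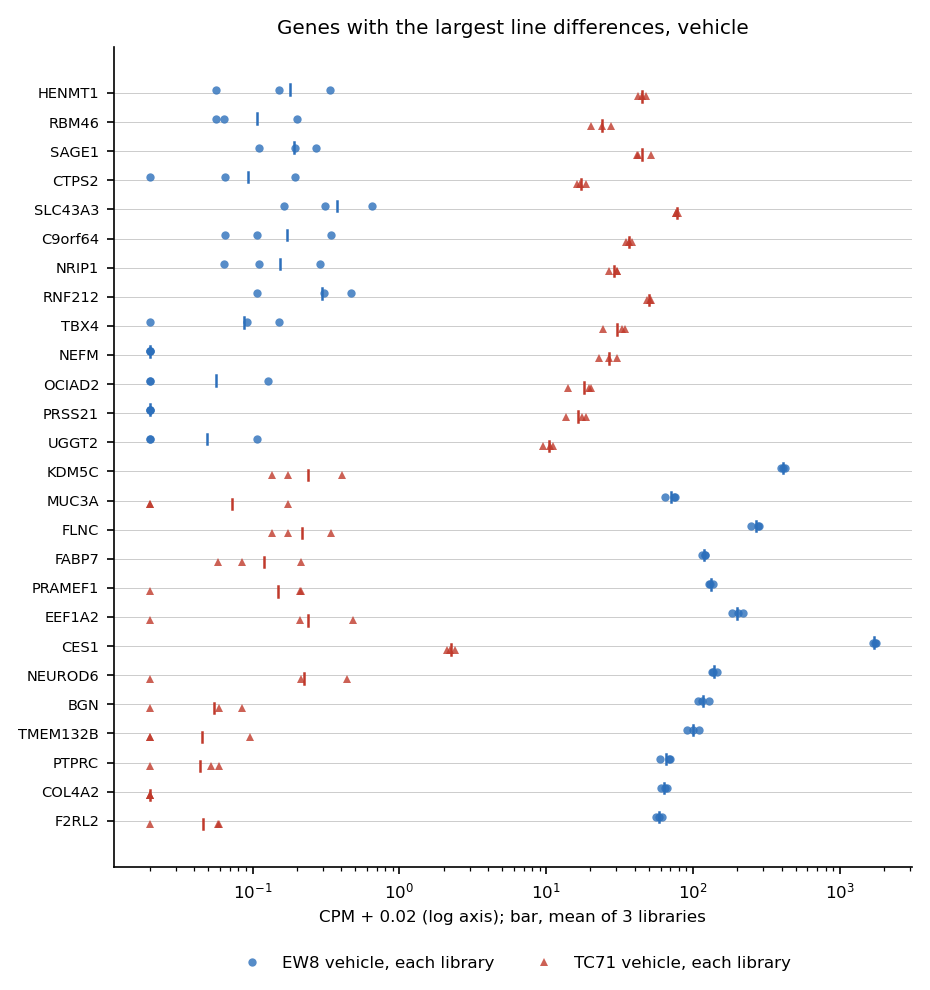
Level of the genes with the largest line differences in each vehicle library, in CPM plus 0.02 on a log axis, with EW8 as circles, TC71 as triangles and the mean of 3 libraries as a bar. The genes were chosen for their differences in these same libraries, so that the lack of overlap between the groups is no further result. CES1 is at 1681 CPM or more in EW8 and at 2.35 CPM or less in TC71.

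The identity of both lines was checked against Ewing sarcoma genes. CD99, the surface marker used in diagnosis, was at 802, 825 and 793 CPM in EW8 and 479.7, 582 and 614 CPM in TC71, and the groups did not overlap (log2 fold change of -0.53, SE 0.07, adjusted p = 1.3e-06). The difference was within the fold limit. NR0B1, a nuclear receptor and GGAA repeat target, was at 180.3, 214 and 203 CPM in EW8 and 99.4, 119 and 129 CPM in TC71 (log2 fold change of -0.78, SE 0.09, adjusted p = 2.39e-07). CCND1, cyclin D1, was at 1417, 1423 and 1419 CPM in EW8 and 1344, 1467 and 1465 CPM in TC71 and did not pass the test (log2 0.01, adjusted p = 0.935). It was the marker with the highest level per length in EW8, at 294 CPM per kb. NKX2-2, the homeodomain factor used as a second marker, was at 38, 44.6 and 45.3 CPM in EW8 and 13.2, 9.84 and 11.9 CPM in TC71 and was called higher in EW8 (log2 fold change of -1.87, SE 0.13, adjusted p = 5.46e-10). Each of these markers was expressed in every library of both lines. EWSR1 was at 314, 333 and 307 CPM in EW8 and 475, 537 and 534 CPM in TC71 (log2 0.70, not called). FLI1 was at 45.7, 42.7 and 40.3 CPM in EW8 and 86.2, 87.3 and 79.5 CPM in TC71 (log2 0.98), just under the fold limit. It was over the limit without TC71 replicate 1 (1.07), TC71 replicate 3 (1.04) or EW8 replicate 1 (1.02). Reads of the fusion transcript fall into the counts of both partner genes and were not told apart from those of the normal alleles.

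Of the 24 tested Ewing sarcoma markers, 4 were higher in TC71 and 8 higher in EW8 (16.7% and 33.3%). PAPPA, a protease of IGF binding proteins, was at 187, 181 and 192 CPM in EW8 and 35.6, 40.6 and 43.3 CPM in TC71, the largest difference in that direction (log2 fold change of -2.23, SE 0.06, adjusted p = 2.32e-15). SOX2, a stem cell factor, was at 207, 204 and 212 CPM in EW8 and 55.3, 62.8 and 59.3 CPM in TC71 (log2 -1.81). CALCB, which encodes a calcitonin gene-related peptide, was at 7.13, 9.74 and 9.81 CPM in EW8 and 21.2, 23.1 and 22 CPM in TC71 and was higher in TC71 (log2 1.31). VRK1, JAK1 and KDSR were the other markers higher in TC71, with log2 differences of 1.29, 1.06 and 1.00. KDSR lay at the fold limit, and its call was lost without EW8 replicate 2, TC71 replicate 2 or TC71 replicate 3. Among 34 tested EWS-FLI1-activated genes, 8 were higher in TC71 and 11 higher in EW8, a list that shares members with the markers. Without TC71 replicate 1 or EW8 replicate 3 the counts were 10 and 10. EGR2, a growth factor-induced zinc finger gene, was at 17.1, 18.5 and 18.5 CPM in EW8 and 92.5, 98.8 and 103 CPM in TC71 and had the largest difference in favor of TC71 (log2 2.44). MYC was at 197, 216 and 207 CPM in EW8 and 481, 555 and 641 CPM in TC71 (log2 fold change of 1.43, SE 0.08, adjusted p = 4.44e-11). CAV1, caveolin-1, had the highest level per length of the list, at 768 CPM per kb in EW8 and 280.5 in TC71 (log2 -1.45). Called genes of the activated list lay on both sides, in shares of 23.5% and 32.4% against a background of 11.6% and 18.9%.

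Genes that the fusion represses were also split. Of 35 tested members, 7 were higher in TC71 and 13 higher in EW8, with a median log2 difference of -0.55, or -0.49 when bounds stand in for floor genes, against -0.04 over all genes. Without TC71 replicate 1 the counts were 8 and 10, with a median of -0.38. LGALS1, galectin-1, was at 170.4, 187 and 183 CPM in EW8 and 4.49, 7.89 and 7.26 CPM in TC71 (log2 fold change of -4.78, SE 0.13, adjusted p = 1.15e-15). TIMP3, an inhibitor of matrix metalloproteinases, was at 726, 706 and 732 CPM in EW8 and 75.2, 98.5 and 106 CPM in TC71 (log2 -2.95). ZYX, the focal adhesion protein zyxin, was at 233, 251 and 247 CPM in EW8 and 81.9, 110.2 and 118 CPM in TC71 (log2 -1.23, or -0.98 and not called without TC71 replicate 1). These genes were higher in EW8, while VIM, LOX, TAGLN, LUM, COL3A1 and COL5A2 of the same list were higher in TC71. The list's largest log2 difference in favor of TC71 was that of CD44, but it rested on 1 library with 0.129 CPM, and no fold is given. S100A6, a calcium-binding protein gene, was at 0.677, 0.959 and 1.22 CPM in EW8 and 0 CPM in all 3 TC71 libraries, at least 8.18-fold higher in EW8. With doxycycline, 9 and 10 members were called higher in TC71 and in EW8.

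FN1, VIM, VCL and FAP, whose proteins were among those that the study followed by immunoblot, were considered at the mRNA level. FN1, fibronectin (ENSG00000115414.18, chromosome 2, 215360440 to 215436172, minus strand), was at 764, 793 and 808 CPM in EW8 and 41.1, 75.9 and 77.2 CPM in TC71 (log2 fold change of -3.61, SE 0.16, adjusted p = 7.82e-13). Without TC71 replicate 1 the difference was -3.25. VIM, vimentin (ENSG00000026025.15, chromosome 10, 17228259 to 17237593, plus strand), was at 127, 119 and 121 CPM in EW8 and 537, 509 and 539.5 CPM in TC71, in the other direction (log2 fold change of 2.11, SE 0.05, adjusted p = 1.6e-16). VCL, vinculin, was at 204, 210.2 and 221 CPM in EW8 and 249.8, 274 and 275 CPM in TC71 (log2 0.33, adjusted p = 2.33e-05). The VCL libraries did not overlap, but the difference was far under the fold limit. FAP, fibroblast activation protein, was at 2.71, 2.22 and 2.07 CPM in EW8 and 2, 3.58 and 3.79 CPM in TC71 and did not pass the test (log2 0.43, adjusted p = 0.062). Without TC71 replicate 1 the FAP difference was 0.77, which passed the same test (adjusted p = 6.93e-05) but not the fold limit.

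Collagen genes differed in which chains each line expressed. Fibrillar collagens form the fibrils of connective tissue, and of 11 tested members, 4 were higher in TC71 and 6 higher in EW8 (36.4% and 54.5%). The latter count was 4 without TC71 replicate 2 and 3 without TC71 replicate 3, with 4 higher in TC71 in both cases. The type V chains went in opposite directions. COL5A1 was at 129, 141 and 139.5 CPM in EW8 and 9.59, 11.8 and 8.85 CPM in TC71 (log2 fold change of -3.75, SE 0.09, adjusted p = 3.06e-16), and COL5A2 was at 55.5, 61.3 and 58.1 CPM in EW8 and 257, 277 and 257 CPM in TC71 (log2 fold change of 2.18, SE 0.06, adjusted p = 7.76e-16). COL3A1, the type III chain of elastic tissues, was at 45.4, 47.4 and 50.3 CPM in EW8 and 173, 162 and 159.8 CPM in TC71 (log2 1.79). COL2A1, the cartilage collagen, was at 0.361, 0.174 and 0.467 CPM in EW8 and 5.46, 10 and 8.17 CPM in TC71 and had the largest difference in favor of TC71 (log2 4.53). COL27A1 was at 14.2, 14.7 and 14.6 CPM in EW8 and 0.687, 0.258 and 0.31 CPM in TC71 and had the largest in favor of EW8 (log2 -5.13). COL1A2, a type I chain, was at 0.226, 0.392 and 0.431 CPM in EW8 and 0, 0.0322 and 0 CPM in TC71 and was thus under 1 CPM in every vehicle library of both lines. COL5A2 had the highest level per length of the list, at 35.4 CPM per kb in TC71 and 7.82 in EW8. With doxycycline, 6 and 2 fibrillar collagens were called higher in TC71 and in EW8, and the median difference was 1.52 against -1.09 with vehicle, or -0.14 with the vehicle bounds used for floor genes.

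Outside the fibrillar class, more collagen genes were called higher in EW8 than in TC71. Of 27 tested members, 5 were higher in TC71 and 15 higher in EW8 (18.5% and 55.6%), with a median of -1.88, or -1.56 when bounds stand in for floor genes. Besides the type IV pair, the beaded-filament chain COL6A1 was at 197, 243 and 217 CPM in EW8 and 17.6, 25.3 and 24.7 CPM in TC71 (log2 fold change of -3.28, SE 0.11, adjusted p = 3.77e-14) and its partner COL6A2 was at 121, 146 and 138 CPM in EW8 and 7.1, 11.3 and 11 CPM in TC71 (log2 -3.78). COL25A1, a transmembrane collagen of neurons, was at 56.4, 55.4 and 57.5 CPM in EW8 and 1.68, 3.32 and 3.86 CPM in TC71 (log2 -4.25), and COL18A1, the precursor of endostatin, was at 24.2, 31.2 and 29.6 CPM in EW8 and 0.936, 1.45 and 1.34 CPM in TC71. COL6A1 and COL6A2 are neighbors on chromosome 21 and differed in the same direction. The 5 collagens higher in TC71 were COL15A1, COL19A1, COL14A1, COL4A6 and COL21A1. Of these, COL19A1 was at 0.609, 0.697 and 0.395 CPM in EW8 and 29.7, 29.6 and 35.6 CPM in TC71 and COL21A1 at 47.2, 44.8 and 51.1 CPM in EW8 and 104, 110.0 and 114 CPM in TC71, while COL15A1, COL14A1 and COL4A6 stayed at or under a mean of 0.916 CPM. With doxycycline COL6A1 no longer passed the fold limit (log2 -0.53).

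Laminins, the heterotrimers that join basement membranes to integrins, also differed chain by chain. Of 14 tested laminin and nidogen genes, 2 were higher in TC71 and 7 higher in EW8. LAMA2, the alpha chain of muscle and nerve laminin, was at 2.68, 2.66 and 3.45 CPM in EW8 and 83.4, 101 and 95 CPM in TC71 (log2 fold change of 4.98, SE 0.11, adjusted p = 1.09e-16). LAMB3, a chain of epithelial laminin-332, was at 71.7, 69.7 and 69 CPM in EW8 and 1.03, 1.43 and 1.11 CPM in TC71 (log2 fold change of -5.86, SE 0.10, adjusted p = 2.53e-18). LAMC3 was at 8.75, 12.1 and 10.6 CPM in EW8 and 0.305, 0.451 and 0.31 CPM in TC71 (log2 -4.86), and NID1, a linker of laminin and type IV collagen, was at 46.8, 49.6 and 50 CPM in EW8 and 6.42, 14.6 and 12.5 CPM in TC71 (log2 -2.12). LAMA2 and LAMA4 were the genes higher in TC71, and LAMB3, LAMC3, LAMA5, LAMA3, LAMA1, NID1 and NID2 were those higher in EW8. LAMB1 was the list's highest gene per length, at 19.9 CPM per kb in TC71 and 10.8 in EW8, and lay under the fold limit (log2 0.88, or 1.04 without TC71 replicate 1).

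Matrix glycoproteins and proteoglycans organize the collagen network and bind growth factors. Of 48 tested members, 7 were higher in TC71 and 23 higher in EW8 (14.6% and 47.9%). FBN2, fibrillin-2 of elastic microfibrils, was at 37, 36.5 and 40.4 CPM in EW8 and 0 CPM in all 3 TC71 libraries, at least 326-fold higher in EW8. ELN, elastin, was at 196, 218 and 210.2 CPM in EW8 and 40.4, 40.6 and 44.4 CPM in TC71 (log2 -2.32), and FBLN1, fibulin-1, was at 173, 204 and 186 CPM in EW8 and 59.3, 77.8 and 71.3 CPM in TC71 (log2 -1.43). FBLN2 and EFEMP1, of the fibulin family, were called higher in EW8 as well, while FBN1, FBLN5 and EFEMP2 were not called. NTN1, the axon guidance cue netrin-1, was at 36, 41.9 and 36.4 CPM in EW8 and 0.42, 0.515 and 0.66 CPM in TC71 (log2 -6.16). SLIT2, another axon guidance cue, was at 14.8, 15.2 and 17.3 CPM in EW8 and 149, 152 and 151 CPM in TC71 and was higher in TC71 (log2 3.26). DCN and LUM, small leucine-rich proteoglycans of the same family as BGN, were higher in TC71 at low levels, at means of 7.92 and 3.65 CPM. SPARC, osteonectin, had the list's highest level per length and did not differ past the test (log2 0.02, SE 0.07, adjusted p = 0.858). OGN had the largest log2 difference in favor of TC71 (3.84, or 8.37 without EW8 replicate 2 and 3.19 without TC71 replicate 1), with no TC71 library above 1.53 CPM.

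Integrins, the cell receptors for these matrix proteins, were called in both directions. Of 22 tested members, 5 were higher in TC71 and 6 higher in EW8 (22.7% and 27.3%, against 11.6% and 18.9% over all genes). ITGB2, the beta chain of leukocyte integrins, was at 116, 134 and 125 CPM in EW8 and 379.6, 535 and 560.5 CPM in TC71 (log2 fold change of 1.98, SE 0.11, adjusted p = 1.4e-11) and had the highest level per length, at 72.3 CPM per kb in TC71. ITGB5, a vitronectin receptor chain, was at 147, 160.1 and 154 CPM in EW8 and 20.2, 24.4 and 24 CPM in TC71 (log2 -2.75), and ITGA1, a collagen receptor chain, was at 58.1, 52 and 57 CPM in EW8 and 19.3, 22.5 and 21.4 CPM in TC71 (log2 -1.40). ITGA10, at a mean under 1 CPM in both lines, had the largest log2 difference in favor of TC71 (2.98, or 3.83 without EW8 replicate 2). ITGB8 was at 0.0902, 0.262 and 0.18 CPM in EW8 and 0 CPM in all 3 TC71 libraries, at least 1.52-fold higher in EW8. Of 32 tested cadherin-family genes, 9 were higher in TC71 and 13 higher in EW8 (28.1% and 40.6%). DCHS2, a giant cadherin of planar polarity, was at 1.33, 1.07 and 1.65 CPM in EW8 and 98.5, 117 and 115 CPM in TC71 (log2 fold change of 6.33, SE 0.13, adjusted p = 4.43e-17). FAT4, its relative, was at 132, 117 and 138 CPM in EW8 and 36.3, 45.1 and 43.7 CPM in TC71 (log2 -1.63), and DCHS1, which encodes the FAT4 ligand, was at 26.4, 25.4 and 26.1 CPM in EW8 and 2.02, 4.75 and 3.73 CPM in TC71 (log2 -2.88). PCDH10 and PCDH7 were higher in TC71 (log2 2.01 and 2.37). CDH6 was at 4.33, 4.64 and 4.08 CPM in EW8 and 0, 0.0322 and 0 CPM in TC71, at least 37.4-fold higher in EW8. CDH11, the mesenchymal cadherin, was the highest per length in the list and was not called (log2 -0.75).

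Intermediate filaments are the cell type-specific part of the cytoskeleton. Of 19 tested members, 7 were higher in TC71 and 3 higher in EW8 (36.8% and 15.8%). NEFH, the heavy neurofilament chain (ENSG00000100285.9, chromosome 22, 29480230 to 29491390, plus strand), was at 6.9, 6.36 and 7.29 CPM in EW8 and 918, 876 and 918 CPM in TC71 (log2 fold change of 7.04, SE 0.11, adjusted p = 2.53e-18). NEFL, the light chain, was at 0.902, 1 and 1.47 CPM in EW8 and 91.3, 113 and 116 CPM in TC71 (log2 fold change of 6.54, SE 0.16, adjusted p = 4.14e-16), and NEFM was given with the one-line genes. The 3 neurofilament chains were thus higher in TC71, with no overlap between the lines. KRT18, the simple epithelial keratin, was at 4.69, 5.49 and 3.88 CPM in EW8 and 174, 196 and 211 CPM in TC71 (log2 fold change of 5.38, SE 0.10, adjusted p = 2.04e-17). PRPH, peripherin of peripheral neurons, was at 1.96, 1.13 and 1.49 CPM in EW8 and 33.4, 20.8 and 24.1 CPM in TC71 (log2 4.09), and NES, the neural progenitor filament nestin, was at 0.541, 0.392 and 0.18 CPM in EW8 and 2.63, 2.71 and 2.37 CPM in TC71 (log2 2.82). INA, alpha-internexin, went the other way, at 30.8, 30.1 and 34.8 CPM in EW8 and 6.84, 6.86 and 7.98 CPM in TC71 (log2 -2.14). NEFH had the highest level per length, at 239 CPM per kb in TC71 and 1.81 in EW8. In the doxycycline libraries the differences for NEFH, NEFL, NEFM and KRT18 were 5.85, 7.36, 9.91 and 3.40, all called.

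**Figure D3:**
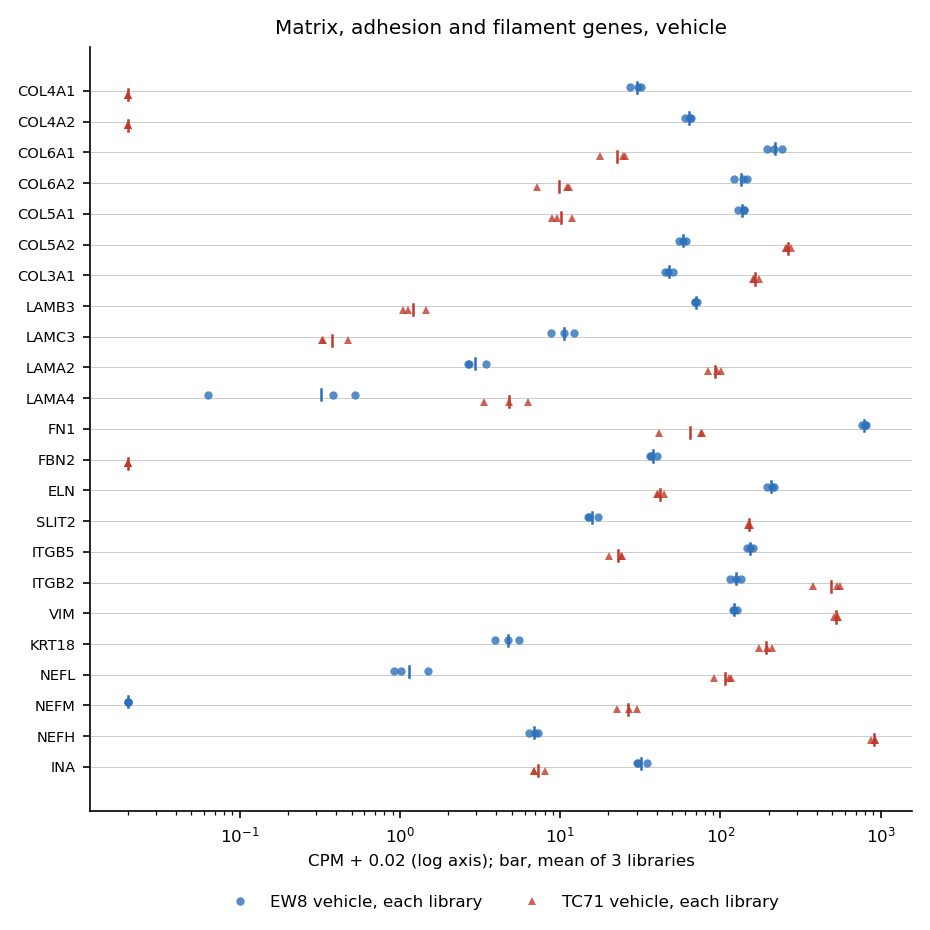
Level of matrix, adhesion and filament genes in each vehicle library, in CPM plus 0.02 on a log axis, with EW8 as circles, TC71 as triangles and the mean of 3 libraries as a bar. COL4A1, COL4A2 and FBN2 have no count in TC71, and NEFM has none in EW8.

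Contractile and focal adhesion genes had 8 members higher in TC71 and 9 higher in EW8 of 36 tested. TNS3, a tensin of focal adhesions, was at 4.15, 4.47 and 3.92 CPM in EW8 and 0 CPM in all 3 TC71 libraries, at least 35.9-fold higher in EW8, whereas TNS1 was at 34.5, 33.1 and 36.3 CPM in EW8 and 149.6, 142 and 128 CPM in TC71 and higher in TC71 (log2 2.02). TLN2, talin-2, was at 2.12, 2.14 and 2.6 CPM in EW8 and 20.5, 19.1 and 19.1 CPM in TC71 (log2 3.09). ACTN4, an actin crosslinker, was at 889, 990.3 and 902 CPM in EW8 and 283, 305 and 304 CPM in TC71 (log2 -1.64), and TPM2, a tropomyosin, was at 72, 78 and 72.1 CPM in EW8 and 202, 208 and 212 CPM in TC71 (log2 1.49). Members of the tensin family were thus called on different sides, as were ACTN4 and TPM2. Without TC71 replicate 1 the counts were 9 and 6.

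Neuronal genes were called in both directions. Of 46 tested members, 13 were higher in TC71 and 22 higher in EW8 (28.3% and 47.8%). On the TC71 side, besides the neurofilaments, GAP43 of growing axons was at 1.49, 1.4 and 2.01 CPM in EW8 and 28.1, 33.1 and 36.9 CPM in TC71 (log2 4.31). NCAM1, the neural adhesion molecule CD56, was at 6.61, 4.77 and 5.66 CPM in EW8 and 30.4, 31.7 and 29.8 CPM in TC71 (log2 2.43), and MAPT, the microtubule protein tau, was at 194, 212 and 191 CPM in EW8 and 439.7, 573 and 576 CPM in TC71 (log2 1.41). On the EW8 side, SYN1, synapsin of synaptic vesicles, was at 189 CPM in all 3 EW8 libraries and 10.6, 17.4 and 14.8 CPM in TC71 (log2 fold change of -3.72, SE 0.16, adjusted p = 8.9e-13), and CNTNAP2, an axonal adhesion protein, was at 214, 207 and 222 CPM in EW8 and 14, 19.6 and 20.8 CPM in TC71 (log2 -3.56). DCX, doublecortin of migrating neurons, was at 10.4, 10.1 and 10.4 CPM in EW8 and 0.229, 0.258 and 0 CPM in TC71 (log2 -5.93). Of the synaptic vesicle genes, SNAP25, VAMP2, SYP and STX1A were also called higher in EW8, SYT4 was not called, and SYT1 and SYN2 were called higher in TC71 (log2 1.17 and 1.03). The call of SYN2 was lost without EW8 replicate 2 (0.71), that of SYP without TC71 replicate 1 (-0.98) and that of STX1A without TC71 replicate 2 (-0.92) or 3 (-0.92). With doxycycline, 12 and 16 neuronal genes were called higher in TC71 and in EW8.

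Potassium channels set the resting potential of a cell and shape firing in neurons. Of 27 tested members, 2 were higher in TC71 and 16 higher in EW8 (7.41% and 59.3%), with a median of -1.95, or -1.73 when bounds stand in for floor genes. KCNQ3 and KCNQ5, voltage-gated channel subunits, were higher in EW8, with KCNQ5 at 74.3, 70 and 76 CPM in EW8 and 21.5, 25.3 and 25.8 CPM in TC71 (log2 -1.60). KCNA2, a delayed rectifier of axons, was at 139, 125 and 143 CPM in EW8 and 2.18, 1.26 and 1.75 CPM in TC71 (log2 fold change of -6.31, SE 0.17, adjusted p = 1.4e-15), and KCNN1, a calcium-activated channel, was at 73.5, 80.8 and 85.1 CPM in EW8 and 28, 21.3 and 22.8 CPM in TC71 (log2 -1.73). The channels higher in TC71 were KCNH5, at 3.38, 2.44 and 2.44 CPM in EW8 and 7.37, 8.24 and 10.2 CPM in TC71 (log2 1.64), and KCNK3, which stayed under 1 CPM in every vehicle library. KCNE4, an accessory subunit, had the highest level per length and was not called (log2 0.59). With doxycycline, 4 and 13 channel genes were called higher in TC71 and in EW8.

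HOX genes, the homeodomain factors that set position along the body axis, were compared cluster by cluster. In the HOXA cluster, 8 of 10 tested genes were higher in EW8 and 1 was higher in TC71. HOXA7 was at 10.9, 11.1 and 12.4 CPM in EW8 and 0.573, 0.693 and 1.2 CPM in TC71 (log2 -3.81). HOXA10 was the exception, at 1.38, 2.03 and 1.64 CPM in EW8 and 3.99, 5.28 and 5.16 CPM in TC71 (log2 1.52). HOXA genes were at low levels, with no mean over 11.5 CPM among the called ones. In the HOXB cluster 4 of 9 genes were higher in TC71 and none was called higher in EW8. HOXB9 was at 0.226, 0.262 and 0.18 CPM in EW8 and 5.46, 28.8 and 31.5 CPM in TC71 (log2 fold change of 6.62, SE 0.57, adjusted p = 1.09e-08), and replicate 1 of TC71 lay apart from the others. The difference was 7.19 without that library and 2.74 with doxycycline. HOXB13, the highest gene of the cluster per length, was at 52.8, 62.5 and 53.1 CPM in EW8 and 94.2, 82.1 and 81.9 CPM in TC71 and was not called (log2 0.62). In the HOXC cluster 2 of 8 genes were higher in TC71 and 1 higher in EW8. HOXC11 was at 1.58, 1.7 and 1.65 CPM in EW8 and 15.6, 18.4 and 13.5 CPM in TC71 (log2 3.27) and HOXC4 at 10.1, 10.4 and 11.9 CPM in EW8 and 1.66, 2.27 and 2.23 CPM in TC71 (log2 -2.40). HOXC12, the highest of that cluster per length, did not pass the test (log2 -0.15). In the HOXD cluster only HOXD3 and HOXD4 of 8 genes were called, both higher in TC71 and both at a mean under 2 CPM. HOXD13, an EWS-FLI1-associated gene, was at 74, 73.4 and 75.9 CPM in EW8 and 127, 119 and 118 CPM in TC71 and lay under the fold limit (log2 0.70). With doxycycline 9 of the HOXA genes were called higher in EW8 and 2 of the HOXB genes higher in TC71.

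Other transcription factors of neural crest and mesodermal lineages were called in both directions. Of 53 tested lineage factors, 15 were higher in TC71 and 19 higher in EW8 (28.3% and 35.8%). On the EW8 side, TFAP2C, an AP-2 factor, was at 15.5, 16.4 and 18.3 CPM in EW8 and 0 CPM in all 3 TC71 libraries, at least 144-fold higher, and TFAP2B was at 82.6, 80.8 and 91.8 CPM in EW8 and 2.48, 3.54 and 3.57 CPM in TC71 (log2 fold change of -4.73, SE 0.13, adjusted p = 9.49e-16). DLX5, a homeobox gene of skeletal and craniofacial development, was at 253, 286 and 273 CPM in EW8 and 49.2, 53.7 and 50 CPM in TC71 (log2 fold change of -2.41, SE 0.06, adjusted p = 1.03e-15) and had the highest level per length. NR2F2, a nuclear receptor of mesenchyme and veins, was at 283, 267 and 271 CPM in EW8 and 55.8, 55.7 and 57.5 CPM in TC71 (log2 -2.28). TFAP2A, the AP-2 family member of early neural crest, went the other way, at 8.62, 9.35 and 7.54 CPM in EW8 and 51.6, 23.6 and 22.6 CPM in TC71 (log2 1.94). On the TC71 side, NKX2-5, the cardiac homeobox factor, was at 0.857, 0.632 and 0.826 CPM in EW8 and 17.3, 21.3 and 23.1 CPM in TC71 (log2 4.73). NEUROD1, a neuronal differentiation factor, was at 0.271, 0.174 and 0.144 CPM in EW8 and 6.26, 8.63 and 8.97 CPM in TC71 (log2 fold change of 5.35, SE 0.34, adjusted p = 1.57e-10), and POU3F1 was at 8.73, 11.7 and 8.68 CPM in EW8 and 77.3, 95.8 and 92.5 CPM in TC71 (log2 3.19). PAX3, a neural crest and muscle progenitor factor, was at 6.45, 6.54 and 6.52 CPM in EW8 and 26, 29.1 and 24.9 CPM in TC71 (log2 2.04). Some related factors were called on opposite sides. POU3F1 was higher in TC71 and POU3F2 in EW8 (log2 -2.25), EBF1 and EBF2 were higher in TC71 and EBF3 in EW8 (log2 -1.93), TWIST1 was higher in TC71 and TWIST2 in EW8, and SNAI2 was higher in TC71 (log2 2.85) and SNAI1 in EW8 (log2 -1.63).

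MHC class I molecules present peptides made by the proteasome and carried by TAP. Of 20 tested genes of that pathway 7 were higher in EW8 (35.0%, against 18.9% over all genes). None was called higher in TC71, or 1 without EW8 replicate 2 or TC71 replicate 3. HLA-B was at 274, 311 and 297 CPM in EW8 and 8.8, 9.81 and 10.5 CPM in TC71 (log2 fold change of -4.92, SE 0.08, adjusted p = 2.53e-18), and HLA-C was at 188, 209 and 199 CPM in EW8 and 19.2, 21.7 and 23.6 CPM in TC71 (log2 fold change of -3.21, SE 0.08, adjusted p = 4.52e-16). PSMB8, an immunoproteasome subunit, was at 13.1, 14 and 17.6 CPM in EW8 and 0.305, 0.322 and 0.776 CPM in TC71 (log2 -5.01). B2M, the common light chain, was at 488, 450.3 and 477 CPM in EW8 and 649, 589.5 and 616 CPM in TC71 and was not called (log2 0.39). NLRC5, the class I transactivator, was at 7.71, 8.98 and 8.82 CPM in EW8 and 0.611, 0.886 and 0.64 CPM in TC71 (log2 -3.56). TAP1 and TAP2 were also higher in EW8 (log2 -2.21 and -1.71). CALR, a chaperone with the highest level per length of the list, was not called (log2 0.13). HLA alleles differ in sequence from the reference genome, and the part of this in the counts was not tested.

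MHC class II genes were low in both lines. HLA-DPB1 was at 14.7, 17.4 and 16.7 CPM in EW8 and 0.496, 0.95 and 0.835 CPM in TC71 (log2 -4.40) and HLA-DRA at 3.56, 3.36 and 3.84 CPM in EW8 and 0 CPM in all 3 TC71 libraries, at least 30.8-fold higher in EW8. HLA-DOA went the other way, at 0.135, 0.305 and 0.252 CPM in EW8 and 3.06, 3.58 and 4.19 CPM in TC71 (log2 3.94). In all, 6 of 10 tested class II genes were higher in EW8 and 1 higher in TC71. Interferon response genes, which are induced by STAT and IRF factors, had 27 of 58 members higher in EW8 and 4 higher in TC71 (46.6% and 6.9%). IFI16, a nuclear DNA sensor, was at 227, 234 and 228 CPM in EW8 and 62, 50.9 and 58.1 CPM in TC71 (log2 -2.01). HERC5, the ligase for ISG15, was at 77.7, 73.5 and 78.8 CPM in EW8 and 6.11, 8.81 and 8.54 CPM in TC71 (log2 -3.29), and BST2, tetherin, was at 29.2, 31.6 and 29.5 CPM in EW8 and 0, 0.129 and 0.0776 CPM in TC71 (log2 fold change of -8.65, SE 0.23, adjusted p = 1.15e-15), with a log2 difference of -8.01 without TC71 replicate 1 and -9.51 without TC71 replicate 2. CGAS, the cytosolic DNA sensor, was among the 4 genes higher in TC71, at 0.947, 1.22 and 1.15 CPM in EW8 and 31, 28.7 and 30.6 CPM in TC71 (log2 fold change of 4.76, SE 0.14, adjusted p = 3.34e-15), with IRF7 at 0, 0.0872 and 0.0359 CPM in EW8 and 2.79, 2.22 and 2.56 CPM in TC71 and USP18 and IFIT5 at log2 differences of 1.56 and 1.18. IFITM3 had the highest level per length of the list and was not called (log2 -0.56). With doxycycline 43 of the 58 interferon genes were called higher in EW8 and 2 higher in TC71, with a background of 18.4% and 12.6%.

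Markers of other cell types were checked because PTPRC marks leukocytes. Of 10 leukocyte markers listed, 6 passed the filter on low counts. Of these, 4 were higher in EW8 and none was called higher in TC71. They included PTPRC, LAPTM5 at a mean under 1 CPM and CORO1A at 8.75, 9.59 and 10.2 CPM in EW8 and 2, 4.25 and 3.03 CPM in TC71. The summed level of the tested leukocyte markers ran from 75.3 to 85 CPM in EW8 and from 2.75 to 4.9 CPM in TC71, most of it PTPRC in EW8. Of 10 epithelial markers listed, 6 passed that filter. KRT18, ESRP1 and EPCAM were higher in TC71 and GRHL2 and CLDN4 higher in EW8, and all of these but KRT18 had means under 1 CPM. The call of ESRP1 was lost without EW8 replicate 2 or 3 or TC71 replicate 2 or 3. Their summed level was 10.6 to 11.4 CPM in EW8 and 176.6 to 216.0 CPM in TC71. Of 10 endothelial markers, 6 were higher in EW8 and 1 higher in TC71. PECAM1 was at 8.01, 6.45 and 6.75 CPM in EW8 and 0 CPM in all 3 TC71 libraries and EMCN at 13.9, 13.7 and 14.1 CPM in EW8 and 1.03, 0.693 and 0.815 CPM in TC71, while VWF, TEK and ERG had means under 1 CPM in both lines. Of 10 fibroblast markers, 4 were higher in TC71 and 2 higher in EW8. PDGFRA was at 1.08, 0.872 and 0.557 CPM in EW8 and 5.08, 4.2 and 2.93 CPM in TC71 (log2 2.29). The summed endothelial markers ran from 23.3 to 24.5 CPM in EW8 and 4.83 to 6.53 CPM in TC71, and the fibroblast markers from 171.3 to 185.9 CPM and 272.1 to 313.6 CPM. Their part in the differences between the lines was not tested.

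**Figure D4:**
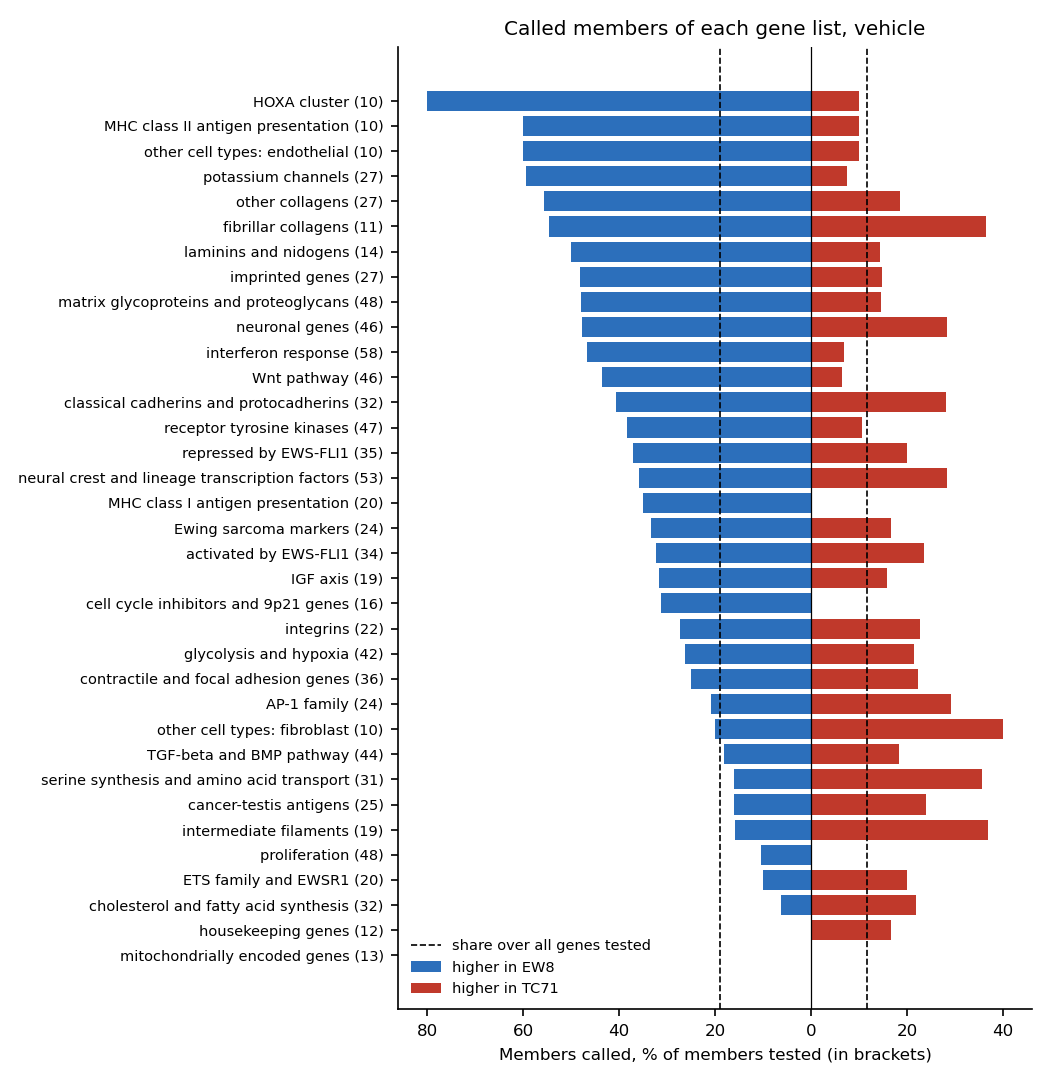
Share of the tested members of each gene list called higher in EW8 (left) and higher in TC71 (right), in percent, for the lists with at least 10 tested genes (number in brackets). Dashed lines mark the shares over all genes tested, 18.9% and 11.6%, and the HOXA cluster, with 80% of members higher in EW8, extends furthest to the left.

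Receptor tyrosine kinases receive growth factor and ephrin signals. Of 47 tested members, 5 were higher in TC71 and 18 higher in EW8 (10.6% and 38.3%). FGFR2 was at 16.9, 16.9 and 19.3 CPM in EW8 and 0 CPM in all 3 TC71 libraries, at least 152-fold higher in EW8, and EGFR was at 8.23, 6.73 and 7.22 CPM in EW8 and 0 CPM in all 3 TC71 libraries, at least 63.5-fold higher. EPHB2, an ephrin receptor, was at 83.2, 90.4 and 89.6 CPM in EW8 and 2.2, 1.98 and 1.84 CPM in TC71 (log2 fold change of -5.45, SE 0.09, adjusted p = 2.53e-18), and EPHA4 was at 101, 102 and 101 CPM in EW8 and 4.96, 7.15 and 6.81 CPM in TC71 (log2 -4.00). FGFR2 and EGFR had no count in any TC71 library. In TC71, EPHB3 was at 3.38, 4.86 and 4.06 CPM in EW8 and 35.4, 37 and 29.8 CPM in TC71 (log2 3.05), with EPHA3 higher as well (log2 2.03). FLT3, a hematopoietic receptor, was at 0.631, 0.61 and 0.79 CPM in EW8 and 6.78, 8.34 and 8.27 CPM in TC71 (log2 3.51). EPHB4 had the list's highest level per length, at 30.8 CPM per kb in EW8 and 14.8 in TC71 (log2 -1.05). Its call was lost without TC71 replicate 1 (log2 -0.93) and, at the limit itself, without EW8 replicate 3.

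The insulin-like growth factor (IGF) axis, on which Ewing sarcoma cells are known to depend, differed in its receptors and binding proteins. IGF1R, the signaling receptor, was at 33, 32.4 and 34.5 CPM in EW8 and 98.9, 121 and 106 CPM in TC71 (log2 fold change of 1.71, SE 0.07, adjusted p = 6.08e-13). INSR, the insulin receptor, was at 54.6, 60.1 and 58 CPM in EW8 and 11.9, 17.3 and 16.8 CPM in TC71 (log2 fold change of -1.91, SE 0.11, adjusted p = 6.22e-11). IGF2R, which clears IGF2, was at 62.8, 57.5 and 66.3 CPM in EW8 and 161, 184 and 179 CPM in TC71 (log2 1.49). IGF1R and IGF2R were thus higher in TC71 and INSR in EW8. IGFBP4 was at 132, 147 and 145 CPM in EW8 and 22.9, 21.4 and 26.3 CPM in TC71 (log2 -2.59), and PAPPA, the protease that cleaves IGFBP4, differed in the same direction. IGF2 was at 1.44, 1.31 and 0.754 CPM in EW8 and 0 CPM in all 3 TC71 libraries, at least 10-fold higher in EW8 but near 1 CPM there. STC2, stanniocalcin-2, was at 1.6, 1.48 and 1.44 CPM in EW8 and 25.1, 36 and 57.5 CPM in TC71 and had the largest difference in favor of TC71 (log2 4.71). IGF2BP1, an oncofetal mRNA-binding protein, had the highest level per length and was not called (log2 -0.46). In all, 3 of 19 tested genes were higher in TC71 and 6 higher in EW8 (15.8% and 31.6%, against 11.6% and 18.9% over all genes).

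Imprinted genes, expressed from one parental allele, had 13 of 27 members higher in EW8 and 4 higher in TC71 (48.1% and 14.8%). H19, the non-coding RNA next to IGF2, was at 5.95, 7.15 and 8.73 CPM in EW8 and 0.153, 0.258 and 0.505 CPM in TC71 (log2 -4.58). MEST was at 21, 19.6 and 19.7 CPM in EW8 and 0.382, 0.354 and 0.718 CPM in TC71 (log2 -5.38), and ZDBF2 was at 39.4, 32.5 and 37.6 CPM in EW8 and 2.33, 2.64 and 3.28 CPM in TC71 (log2 -3.73). NDN, necdin, was at 67.2, 74.5 and 68 CPM in EW8 and 29.4, 33.2 and 34.3 CPM in TC71 (log2 -1.11, or -0.94 and not called without TC71 replicate 1). PLAGL1, a zinc finger growth suppressor, went the other way, at 19.6, 19.5 and 17.8 CPM in EW8 and 61.6, 56.6 and 52.3 CPM in TC71 (log2 1.58). DLK1 had the largest log2 difference in favor of TC71, at 0.0451, 0 and 0 CPM in EW8 and 0.344, 0.741 and 1.09 CPM in TC71, whereas the non-coding MEG3 of the same imprinted region was at 6.34, 4.55 and 4.63 CPM in EW8 and 1.38, 0.644 and 0.427 CPM in TC71 and higher in EW8 (log2 -2.67). Of the 50 cancer-testis antigens listed, 25 passed the filter on low counts, with 6 higher in TC71 and 4 higher in EW8. MAGEA12 was at 0.0451, 0 and 0.018 CPM in EW8 and 1.41, 2.27 and 1.9 CPM in TC71 and CT45A1 at 0.0451, 0.218 and 0.0359 CPM in EW8 and 8.46, 7.96 and 7.72 CPM in TC71, and both have close copies. XAGE1B, the highest of the list per length, was not called (log2 -0.49).

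Wnt ligands act through frizzled receptors and are held back by secreted antagonists. Of 46 tested members, 3 were higher in TC71 and 20 higher in EW8 (6.52% and 43.5%). The secreted antagonists SFRP1 and SFRP2 were at 19.3, 19 and 23.1 CPM in EW8 and 0.153, 0.0966 and 0.116 CPM in TC71 (log2 -7.38) and at 11.1, 15.9 and 15.1 CPM in EW8 and 0, 0.0322 and 0 CPM in TC71, the latter at least 120.5-fold higher in EW8. WNT5A, a non-canonical ligand, was at 91.5, 95.2 and 104 CPM in EW8 and 34, 31.4 and 33.1 CPM in TC71 (log2 -1.56). LEF1 and TCF7L1, transcription factors of the pathway, were higher in EW8 as well (log2 -1.51 and -1.64). FZD7, a receptor, was at 28.6, 30 and 32.9 CPM in EW8 and 72.1, 74.2 and 67.3 CPM in TC71 (log2 1.22) and RSPO2, a pathway amplifier, was at 0 CPM in all 3 EW8 libraries and 1.45, 0.902 and 0.582 CPM in TC71, and both were higher in TC71. APCDD1 was the highest per length and was not called (log2 0.16). Without TC71 replicate 1, 5 Wnt genes in place of 3 were higher in TC71. The TGF-beta and BMP list had 8 of 44 tested members higher in each line. That is 18.2% in each direction, against 11.6% higher in TC71 and 18.9% higher in EW8 over all genes. CHRDL1, a BMP antagonist, was at 0.631, 0.479 and 1.01 CPM in EW8 and 37.3, 36.1 and 39.4 CPM in TC71 (log2 fold change of 5.70, SE 0.28, adjusted p = 4.62e-12), and GDF10 was at 1.76, 2.09 and 0.898 CPM in EW8 and 43.6, 58.6 and 64.8 CPM in TC71 (log2 5.16). BMP7 was at 2.66, 4.38 and 3.45 CPM in EW8 and 0, 0.0966 and 0 CPM in TC71, at least 30-fold higher in EW8. TGFB1 was at 108, 122 and 125 CPM in EW8 and 226, 238 and 260.0 CPM in TC71 (log2 1.03) and had the highest level per length. Its call was lost without EW8 replicate 1 (0.96) or TC71 replicate 3 (1.00).

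The AP-1 subunits, which the construct changes on induction, were measured before it. JUN was at 20.3, 24.6 and 19.8 CPM in EW8 and 18, 18.8 and 25.4 CPM in TC71 and did not pass the test (log2 -0.06, SE 0.11, adjusted p = 0.687). FOS was at 36.8, 37.6 and 35.9 CPM in EW8 and 11.2, 12.1 and 11.8 CPM in TC71 (log2 fold change of -1.65, SE 0.07, adjusted p = 2.68e-13). Transgene and endogenous reads of these genes fall into the same counts. FOSL2, a Fos-related subunit, was at 2.28, 2.22 and 2.26 CPM in EW8 and 18.9, 14.1 and 12.8 CPM in TC71 (log2 fold change of 2.76, SE 0.13, adjusted p = 1.66e-12), and JUNB was at 8.95, 10.5 and 11.3 CPM in EW8 and 28.3, 27.8 and 25.8 CPM in TC71 (log2 1.41). JDP2, a Jun dimerization partner, was at 1.35, 2.35 and 1.47 CPM in EW8 and 3.65, 11.7 and 14.1 CPM in TC71 (log2 2.51, or 3.01 without TC71 replicate 1). MAF was at 6, 5.67 and 5.78 CPM in EW8 and 0 CPM in all 3 TC71 libraries, at least 50-fold higher in EW8. In all, 7 of 24 tested family members were higher in TC71 and 5 higher in EW8 (29.2% and 20.8%, against 11.6% and 18.9% over all genes). ATF4, the highest per length, was not called (log2 0.61). With doxycycline none of the 24 was called higher in TC71 and 4 were called higher in EW8. Among ETS factors, FEV was at 2.08, 1.18 and 1.62 CPM in EW8 and 25.3, 19 and 22.2 CPM in TC71 (log2 fold change of 3.77, SE 0.21, adjusted p = 1.77e-11), and ETV5 at 18, 16.6 and 17.5 CPM in EW8 and 30.8, 74.1 and 83.1 CPM in TC71 (log2 1.85). In all, 4 of 20 tested genes of the ETS list were higher in TC71 and 2 higher in EW8, or 1 without EW8 replicate 3, TC71 replicate 2 or TC71 replicate 3. Of the 2, ERG was at or under 0.18 CPM in every vehicle library. ELK1 had the highest level per length and was not called (log2 -0.39).

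Cyclin-dependent kinase inhibitors brake the cell cycle. CDKN2A (ENSG00000147889.17, chromosome 9, 21967753 to 21995301, minus strand), which encodes p16 and p14ARF, was at 26.6, 26.8 and 30.5 CPM in EW8 and 0.21, 0.226 and 0.194 CPM in TC71 (log2 fold change of -7.04, SE 0.33, adjusted p = 2.32e-12). MTAP, a neighboring gene that is often lost with CDKN2A, was at 43, 39 and 41.8 CPM in EW8 and 20.6, 16.8 and 15.8 CPM in TC71 (log2 fold change of -1.22, SE 0.09, adjusted p = 1e-09) and was thus expressed in TC71. CDKN2B was near or under 1 CPM in all vehicle libraries, at 1.24, 0.37 and 0.934 CPM in EW8 and 0.267, 0.58 and 0.427 CPM in TC71. It passed the adjusted p-value (adjusted p = 0.0349) but not the fold limit (log2 -0.98), which it passed without EW8 replicate 2 (-1.33) or TC71 replicate 2 (-1.28). CDKN1C and CDKN2B-AS1 were also among the calls, and all 5 calls among 16 tested genes (31.2%) were higher in EW8. The call of CDKN2B-AS1 was lost without TC71 replicate 3. Few proliferation genes were called. Of 48 tested, 5 were higher in EW8 (10.4%, under the background of 18.9%) and none was called higher in TC71. CCNE1, cyclin E1, was at 27.6, 33.6 and 33.3 CPM in EW8 and 8.44, 8.62 and 8.04 CPM in TC71 (log2 -1.91), and TOP2A, topoisomerase II alpha, was at 1091, 985 and 1064 CPM in EW8 and 391, 348 and 344 CPM in TC71 (log2 -1.54). BUB1, FOXM1 and MCM6 were the others, and the call of MCM6 was lost without TC71 replicate 1 (-0.88). MYBL2 was the highest per length and was not called (log2 -0.24).

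Metabolic lists contained calls in both directions. Of 31 tested genes of serine synthesis and amino acid transport, 11 were higher in TC71 and 5 higher in EW8 (35.5% and 16.1%). SLC1A4, a transporter of neutral amino acids, was at 66.2, 70.3 and 67.8 CPM in EW8 and 476, 572 and 599 CPM in TC71 (log2 fold change of 3.01, SE 0.08, adjusted p = 4.64e-16). MTHFD1L, a mitochondrial folate enzyme, was at 36.7, 37.5 and 36.3 CPM in EW8 and 123, 184 and 197 CPM in TC71 (log2 2.19), and PHGDH, the entry enzyme of serine synthesis, was at 324, 368 and 342 CPM in EW8 and 461, 825 and 889 CPM in TC71 (log2 1.07). SLC7A2, a cationic amino acid transporter, was at 61.7, 58.5 and 61.5 CPM in EW8 and 7.83, 11.3 and 13.1 CPM in TC71 (log2 -2.50). TC71 replicate 1 was under the mean of the other TC71 replicates for 29 of the 31 genes, and without it 15 were higher in TC71 and 4 higher in EW8. Without TC71 replicate 2 the counts were 7 and 5 and without TC71 replicate 3 they were 7 and 6, and in both cases the call of PHGDH was lost. With doxycycline the counts were 5 and 6. Of 32 tested genes of cholesterol and fatty acid synthesis, 7 were higher in TC71 and 2 higher in EW8 (21.9% and 6.25%). SQLE, squalene epoxidase, was at 199, 188 and 220.1 CPM in EW8 and 539.6, 610.5 and 655 CPM in TC71 (log2 1.57) and EBP, a sterol isomerase, at 289, 312 and 315 CPM in EW8 and 90.6, 114 and 119 CPM in TC71 (log2 -1.50). SCD, the highest per length, was not called (log2 0.34). Without TC71 replicate 1 the counts were 10 and 1, and without TC71 replicates 2 and 3 they were 5 and 2 and 6 and 2.

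Glycolysis and hypoxia genes had 9 of 42 members higher in TC71 and 11 higher in EW8 (21.4% and 26.2%), or 11 and 10 without TC71 replicate 1. HK1, hexokinase, was at 172, 172 and 188 CPM in EW8 and 30.2, 35.9 and 35.6 CPM in TC71 (log2 -2.39), and GPI, the next enzyme of glycolysis, was at 1426, 1505 and 1414 CPM in EW8 and 579.5, 553 and 557 CPM in TC71 (log2 -1.36). DDIT4, an mTOR inhibitor induced by stress, was at 3.79, 5.27 and 4.06 CPM in EW8 and 6.76, 16.8 and 58.8 CPM in TC71 (log2 2.65, or 1.47 without TC71 replicate 3). CA12, a carbonic anhydrase, was at 0.0451, 0 and 0.0359 CPM in EW8 and 2.56, 3.25 and 3.38 CPM in TC71, at least 22.6-fold higher in TC71. GAPDH, the highest per length, was lower in every TC71 library than in every EW8 library but not past the fold limit (log2 -0.66). CA9 was called higher in EW8 at 0, 0.131 and 0.216 CPM in EW8 and 0 CPM in all 3 TC71 libraries, so near the floor that no fold is given. Metallothionein MT2A was at 14.6, 17.6 and 13.6 CPM in EW8 and 27.6, 35.5 and 37 CPM in TC71 (log2 1.13), the only call among 3 tested genes of that family, which became 2 calls without TC71 replicate 1. Mitochondrially encoded genes held 1.41% to 1.79% of counts in EW8, 2.56% in TC71 replicate 1 and 1.12% and 1.18% in TC71 replicates 2 and 3. None of the 13 was called, and 1 was called higher in EW8 without TC71 replicate 1. MT-CO3, the highest per length, was at 2791, 2863 and 2277 CPM in EW8 and 3603, 1940 and 2037 CPM in TC71, so that the groups overlapped. Of 12 housekeeping genes, RPLP0 and HPRT1 were higher in TC71 (log2 1.09 and 1.01) and none was called higher in EW8, with 1 call left without EW8 replicate 2 or TC71 replicate 1, each of which removed that of HPRT1. ACTB, the highest per length, was at 4020, 4109 and 3943 CPM in EW8 and 2505, 2656 and 2689 CPM in TC71 (log2 -0.62).

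The genes fixed for naming were also compared between the doxycycline libraries. CDKN2A (-6.83), H19 (-4.91) and NKX2-2 (-1.31) were again called higher in EW8 on the log2 scale, and IGF2 stayed at 0 in TC71. MYC (0.98), FLI1 (0.83), CD99 (-0.71), JUN (0.67), MTAP (-0.64), NR0B1 (-0.54), EWSR1 (0.49) and VCL (0.40) passed the adjusted p-value but not the fold limit. FAP (0.23), HOXD13 (0.07) and CDKN2B (-0.03) did not pass the test. For FN1, VIM and FOS the line difference itself changed with doxycycline, and the values are given with the additional observations.

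Differences were then placed along the genome in 300 windows of 10 Mb with at least 15 tested genes (hg38, Y chromosome left out). Cancer cell lines carry gains and losses of chromosome arms, which differ between lines, and no DNA was measured here. Window medians had quartiles of -0.24 and 0.28 and ran from -2.14 to 0.96. The lowest window was 30 to 40 Mb on chromosome 19, where 158 of 193 genes (81.9%) were higher in EW8 and 4 higher in TC71. Its median in the doxycycline libraries was -2.04. The next by share of genes higher in EW8 reached 66.7%, with 12 of 18 genes at 130 to 140 Mb of chromosome 8. At 0 to 10 Mb of chromosome 12, 84 of 152 genes were higher in EW8 (median -1.17), and at 40 to 50 Mb of the X chromosome 62 of 121 (median -1.10). These were the 4 windows in which more than 50% of genes were called in one direction. The window at 20 to 30 Mb of chromosome 9, which holds CDKN2A and MTAP, had 12 of 33 genes higher in EW8 (median -0.89).

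No window had more than 50% of its genes higher in TC71. The highest median, 0.96, was at 30 to 40 Mb of chromosome 14, with 30 of 68 genes higher in TC71 and 0 higher in EW8, and its median with doxycycline was 1.09. Windows at 100 to 110 Mb of chromosome 13 (median 0.92) and 110 to 120 Mb of chromosome 3 (0.91) followed. COL4A1 and COL4A2 lie in the window after the first of these, at 110 to 120 Mb, where 8 of 37 genes were higher in EW8 and the median was -0.11. By whole chromosome the medians ran from -0.56 on chromosome 7, -0.37 on chromosome 17 and -0.35 on chromosome 19 to 0.40 on chromosome 3 and 0.46 on chromosome 14. The same chromosomes had medians of -0.50, -0.42, -0.33, 0.48 and 0.51 with doxycycline.

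**Figure D5:**
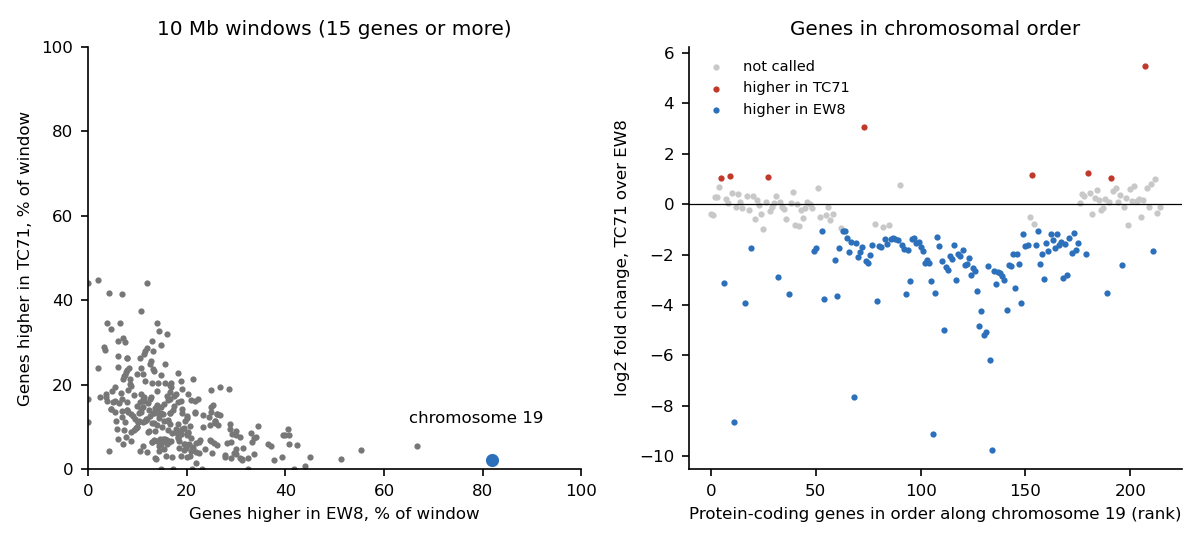
Left, share of genes called higher in EW8 (x axis) and higher in TC71 (y axis) in each of 300 genome windows of 10 Mb, in percent, with the chromosome 19 window at 81.9% marked. Right, log2 fold change of protein-coding genes with a mean of at least 10 CPM in a line, in order along part of chromosome 19, where a run of genes lies under 0 and the genes that follow it lie around 0.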

How the data were processed

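RNA-seq libraries were strand-specific and made from polyadenylated RNA. The authors aligned reads with STAR to GRCh38 and assigned them to exons of GENCODE 29 genes with featureCounts 2.0.1, and the deposited values are raw counts per gene. Per the file headers, pairs and strand were not used, so that mates counted separately and overlapping or near-identical genes are uncertain. The exon length deposited with the counts was used for CPM per kb. Groups came from the sample labels. All 12 libraries entered 1 edgeR 4.0.16 quasi-likelihood fit (R 4.3.3, filterByExpr, TMM, 4 groups), which tested 21013 of 58721 genes. DESeq2 1.42.0, other scalings, filters and left-out libraries were alternatives. The authors used DESeq2. Symbols matched 99.2% of identifiers. Errors are standard errors (SE).

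The 42 gene lists and the comparisons were chosen with earlier results of these data known, and 75 genes are in more than 1 list. Named genes were the 8 largest differences per direction among protein-coding genes above the floor with a mean of at least 10 CPM, the 5 highest one-line genes per direction, 18 fixed genes, and for each list the called extremes, the highest level per length and other called members. B2M, FBN1, FBLN5, EFEMP2 and SYT4, none of them called, and the promoters printed were chosen after their values were seen. RefSeq promoters matched 81.7% of tested protein-coding genes but 70.1% to 78.6% of the called and one-line genes, under 80%, so that a comparison of CG dinucleotides and GGAA repeats in promoters was void. Genes on the Y chromosome, XIST and some other genes that met the rule are not reported here.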

Additional observations from a re-analysis of the deposited data

Results flagged for a closer look

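The line difference of 3 of the 18 genes fixed for naming changed between vehicle and doxycycline by more than 1 on the log2 scale in a test of the change itself (edgeR interaction term, adjusted p-value < 0.05). That term was called for 7.05% of all genes tested. FN1 went from a TC71 over EW8 difference of -3.61 with vehicle to -0.26 with doxycycline, a change of 3.35 (SE 0.21, adjusted p = 1.88e-09). FOS went from -1.65 to 0.55, a change of 2.21 (SE 0.09, adjusted p = 6.41e-12), with reads of the transgene included. VIM went from 2.11 to 0.64, a change of -1.48 (SE 0.07, adjusted p = 2.11e-11). With doxycycline none of the 3 was called between the lines. Dixon's test for an outlying sample was not run, because groups of 3 libraries are too small for it.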

How the results depend on the processing

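The counts of genes higher in TC71 (2446) and in EW8 (3974) were 1253 and 2464 at an absolute log2 fold change over 2, and 5936 and 7038 with no limit on the fold change. With at least 10 counts required in every library, 14647 genes were tested and the counts were 1692 and 1874. That filter removes genes that one line does not express. The share of calls that were higher in TC71 was 38.1%, and it was 47.4% under that filter and 45.8% without the fold limit. Median-ratio size factors, library size alone, DESeq2 (2545 and 3976), no filter on low counts and a fit of the vehicle libraries alone kept both counts within 1.5 times. Leaving out 1 library at a time gave 2407 to 2797 and 3773 to 3950. TC71 replicate 1, left out of a fit of the vehicle libraries alone (chosen after seeing the data), gave 2474 and 3761. Without that library the log2 difference of the median gene moved by 0.107. The count of genes called the same way with doxycycline, 4642, ran from 4558 to 4701.

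A replicate block gave 2390 and 3920 calls, with 2370 and 3885 of them called without it. Deviations of same-numbered vehicle libraries from their group means had correlations of 0.00941, 0.00598 and 0.00569, so that the replicate number was not taken to pair the libraries. A set of 139 named genes held the largest differences, the one-line genes, the fixed genes, and the list extremes and highest levels per length. All of them kept their direction and call under DESeq2, both other scalings and no filter on low counts. Other named list members were outside that set. With library size alone, 1 housekeeping gene in place of 2 and 3 Ewing sarcoma markers in place of 4 were higher in TC71. The ERG log2 fold change ran from -5.27 to 0.00 on leaving out 1 library, and was 0.00 without EW8 replicate 3, the only vehicle library with counts for it. The calls of CD44 and ERG, which rest on single libraries with few counts, were lost under the block (adjusted p = 0.0572 and 0.0536), and that of CD44 without any of the EW8 replicates or TC71 replicate 2. Depth limits the one-line genes: 6 counts were 0.0966 to 0.135 CPM in the vehicle libraries, and lower expression could not be told from none.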

Other observations

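Many genes of the C2H2 zinc finger family encode KRAB repressors and lie in clusters. Zinc finger genes, chosen by a ZNF or ZFP symbol and not by their domains, were counted after the window values had been seen. Of 487 tested genes with a ZNF or ZFP symbol, 145 (29.8%) were higher in EW8 and 33 higher in TC71. At 30 to 40 Mb of chromosome 19, 35 of 38 were higher in EW8, with a median of -2.63. The other 155 genes of that window had 123 higher in EW8 and a median of -1.97, or -1.65 when bounds stand in for floor genes. The other windows of the same chromosome varied. At 20 to 30 Mb 12 of 22 zinc finger genes were higher in EW8 (54.5%, median -1.44). At 10 to 20 Mb the count was 12 of 29 (41.4%, median -0.51), and at 50 to 60 Mb 38 of 97 (39.2%, median -0.70). At 0 to 10 Mb 3 of 19 were higher in EW8 (15.8%). At 40 to 50 Mb 4 of 28 zinc finger genes were higher in EW8 and 4 higher in TC71 (median 0.06). Outside chromosome 19, 41 of 254 (16.1%) were higher in EW8, against 18.9% over all genes tested. With doxycycline 35 of the 38 were again called higher in EW8.

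The ends of the chromosome 19 run were also chosen after seeing the values. Among protein-coding genes with a mean of at least 10 CPM in a line, 105 of the 113 from UQCRFS1 to ZNF780A (29205321 to 40090938, hg38) were higher in EW8 and 2 higher in TC71. Their quartiles were -2.63 and -1.51 around a median of -1.94, which was -1.94 with doxycycline as well. The 20 such genes that follow had a median of 0.21, and the 20 that precede had a median of -0.53. CCNE1, the proliferation gene with the largest difference in favor of EW8, and GPI lie within this run.

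In TC71 replicate 1, all 13 mitochondrially encoded genes were more than 0.5 log2 units above the mean of replicates 2 and 3, with a median of 1.24. Of 31 genes of serine synthesis and amino acid transport, 25 were more than 0.5 below it, with a median of -0.71. Over all genes with a mean of at least 5 CPM in TC71, 891 of 10908 were more than 0.5 from that mean in replicate 1, in either direction.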
